A study of Mus musculus with 6 samples.

Results

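Genes that mark neurons of the thalamus were measured in the olfactory bulb, hippocampus and cortex of mice given PAMAM dendrimers or saline into the nose. The set holds 7 genes of the 35010 gene symbols on the array: Tnnt1, Slitrk6, Prkcd, Gbx2, Tcf7l2, Ramp3 and Plekhg1. They were taken by their gene name in the array files, which gave 12 of 55681 probes, each spotted 1 time. They were picked in part because Tnnt1, Slitrk6 and Prkcd were higher with PAMAM in the hippocampus and Gbx2 was lower in the cortex, so those differences are given as a description and support nothing.

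All mice were male BALB/c, an inbred laboratory strain, aged 8 weeks, and tissue was taken 24 h after 1 dose. The groups were olfactory bulb with PAMAM, hippocampus with PAMAM and cortex with PAMAM (polyamidoamine, a branched polymer carrier, 0.15 mg/kg), and olfactory bulb, hippocampus and cortex with saline (0 mg/kg). RNA of 6 independent experiments was pooled for each group and read on 1 Agilent 1-colour array. PAMAM and saline are thus set against each other on 1 array each, without replicates, and such differences carry no p-value. In tissue RNA, fewer cells of a type and less RNA per cell cannot be told apart.

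The thalamus lies under the hippocampus and relays sensory and motor signals to the cortex, mostly through glutamatergic relay neurons. Gbx2, a homeodomain factor, is needed for thalamic neurons to form. Tcf7l2, an HMG-box factor that acts with beta-catenin in Wnt signalling, is kept on in postmitotic thalamic and habenular neurons. Prkcd encodes protein kinase C delta. Tnnt1 encodes the slow skeletal muscle form of troponin T and is also transcribed in thalamic neurons. Slitrk6 is a leucine-rich repeat membrane protein that influences neurite growth and synapses. Ramp3 is an accessory protein that sets which peptides calcitonin-family receptors bind, and Plekhg1 is a guanine nucleotide exchange factor. None of these genes is confined to the thalamus: Tcf7l2 is also used by oligodendrocyte lineage cells and Prkcd by other forebrain neurons.

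The probes decide what each value reads, and the stretches printed here are those on which the results turn. Coordinates are mm9, as the array files give them, and the probe letters are those of the array files. Capitals mark AATAAA or ATTAAA, the hexamers that precede many poly(A) sites. On the printed strand AATAAA occurs in 10.1% and ATTAAA in 3.95% of the 55681 array probes, and on the other strand in 3.74% and 2.53%. A match is a description of the letters and not evidence that the site is used.
Tnnt1 probe 1: tctgtaactcaaAATAAAgtgcccccaggc
Tnnt1 probe 2: ccatcaactgtcATTAAAgagagttcaagt
Slitrk6 probe: ctcaggagagggacagtgtagctttatttt
Prkcd probe 1: ctggacatttaattaagctcccagacctgc
Prkcd probe 2: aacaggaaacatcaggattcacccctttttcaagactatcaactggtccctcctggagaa
Gbx2 probe: gggctacagccacaccagaagatacactaa
Tcf7l2 probe 1: cgagataaatcccgggaaagtttggaagaa
Tcf7l2 probe 2: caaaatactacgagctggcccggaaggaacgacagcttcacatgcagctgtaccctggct
Tcf7l2 probe 3: aagactgatttaaaaaacaaaaagaaaaaa
Ramp3 probe 1: gtcagttctttttgATTAAAgtgtctcctt
Ramp3 probe 2: cagttctttttgATTAAAgtgtctccttac

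Probes are numbered within a gene by their mean level over the 6 arrays, and probe 1 stands for the gene where 1 value is used. Each probe has 60 bases; probe 2 of Prkcd and of Tcf7l2 are printed whole and the others as 30 bases. Tnnt1 lies on the minus strand, with probe 1 at chr7:4456265-4456324 and probe 2 at chr7:4456172-4456231. Between them lie 33 bases of genome, with probe 2 further along in the direction of transcription. Whether both read 1 transcript was not tested. The Slitrk6 probe is at chr14:111147943-111148002 and the Gbx2 probe at chr1:91825013-91825072, both on the minus strand. The Prkcd probes, also on the minus strand, are at chr14:31409035-31409094 and chr14:31411938-31411997, with 2843 bases of genome between them. The Tcf7l2 probes lie along the plus strand at chr19:55817272-55817331, chr19:55994029-55994088 and chr19:56006638-56006697, so that probe 1 is the one nearest the start of the gene and probe 3 the one nearest its end. Probe 3 is rich in A, with 28 of its 60 bases and 23.3% G or C. The Ramp3 probes at chr11:6577416-6577475 and chr11:6577424-6577483 share 52 bases, so they are near-repeats of 1 measurement and not independent of each other. The Plekhg1 probe is at chr10:6382873-6382932 on the minus strand. Which of these positions are coding and which untranslated was not analysed here.

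Between 34134 and 39057 spots per array, out of 59305 that are not controls, were well above background and 0 were saturated. Levels are log2 of the processed signal with the 75th percentile of each array set to 0, so levels of 1 probe can be compared between arrays but not levels of different probes. By the position codes in the names of the array files, which the headers used here could not check, the arrays lie on 1 slide, with both olfactory bulb arrays and the hippocampus saline array in slide row 1 and the hippocampus PAMAM array and both cortex arrays in row 2. If so, treatment in the hippocampus, and olfactory bulb against cortex, cannot be told apart from slide row. Spot noise is given as the SD of a difference between 2 arrays, from the 50 nearest in level of 399 probes spotted 10 times, and it leaves out labelling, hybridisation and animals. The region labels went with their marker genes, by the summed linear level of each list with the 75th percentile of the array set to 1. Olfactory bulb neuron markers summed to 183.4 (PAMAM) and 186.1 (saline) in the olfactory bulb, against 13.0 to 14.2 on the other 4 arrays. Hippocampal neuron markers summed to 69.8 (PAMAM) and 82.8 (saline) in the hippocampus, against 20.6 to 35.3 elsewhere. Cortical neuron markers summed to 61.9 (PAMAM) and 64.9 (saline) in the cortex, against 18.3 to 38.6 elsewhere. Striatal neuron markers were also highest on the cortex arrays. They summed to 175.9 (PAMAM) and 166.1 (saline) there, against 21.0 to 42.2 elsewhere. The part of striatal tissue in the cortex values was not tested. None of the 6 groups is labelled as thalamus.

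Tnnt1, Slitrk6, Prkcd, Tcf7l2 and Ramp3 were well above background on all 6 arrays by probe 1. Gbx2 was well above background on the 2 cortex arrays only and Plekhg1 on the olfactory bulb PAMAM array only. So 5 of 7 members were measured in the olfactory bulb, meaning well above background on both of its arrays. The hippocampus had 5 measured members and the cortex 6, and the counts given for each region cover those.

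**Figure D1:**
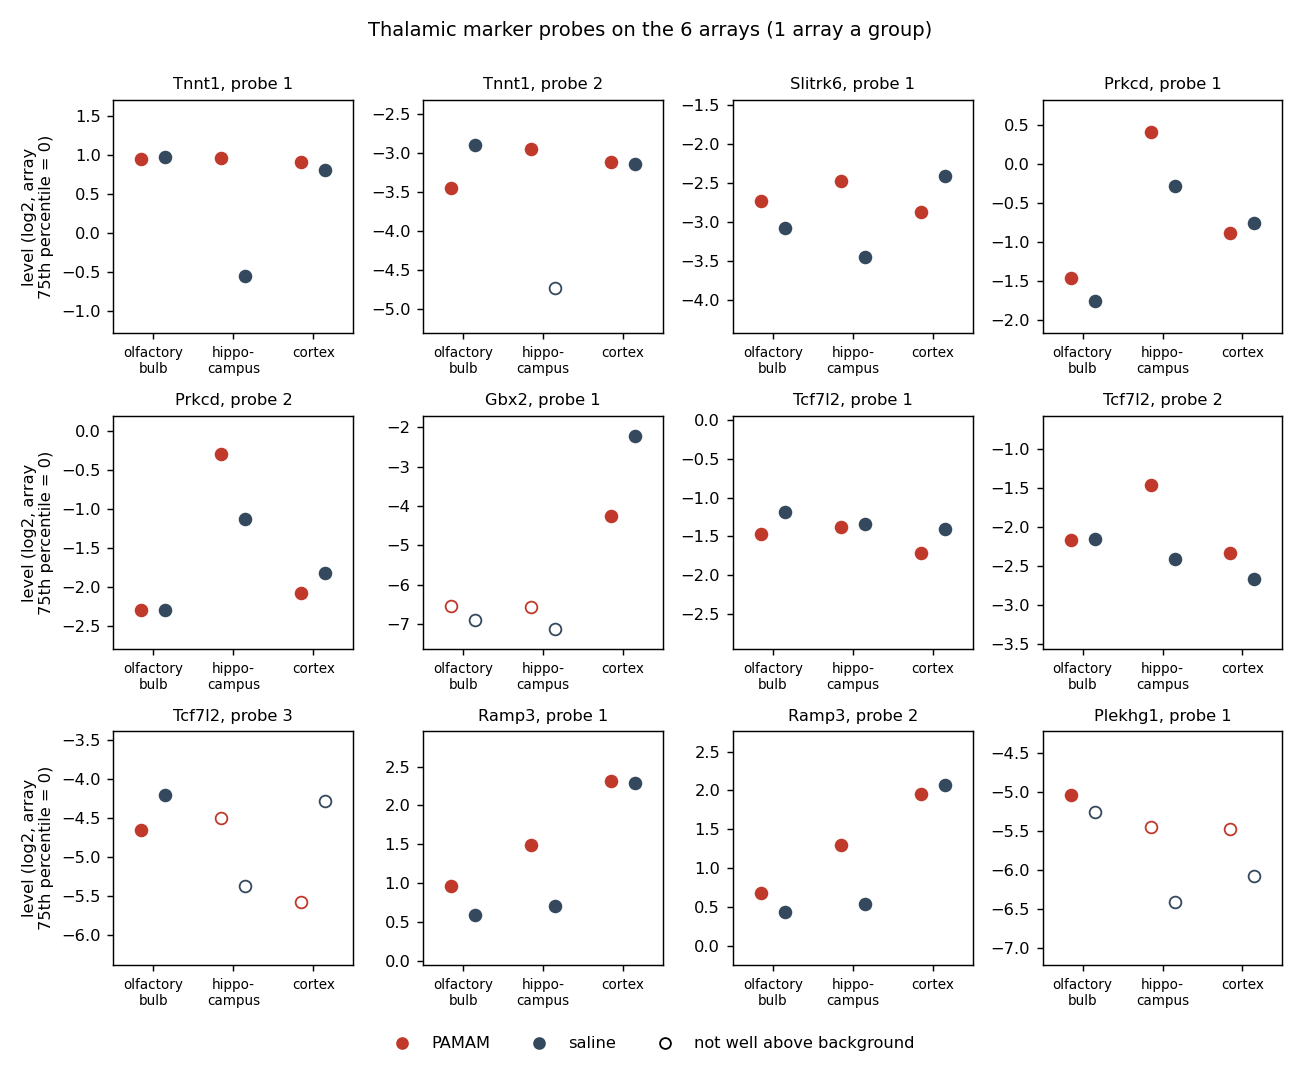
Level of each of the 12 probes (y axis, log2, with the 75th percentile of the array set to 0; the scale differs between panels) on the 6 arrays, with the PAMAM array left of the saline array in each region. Each point is 1 array, and open points are not well above background. On both Tnnt1 probes the hippocampus saline array is the lowest of the 6, and Gbx2 stands above background in the cortex only.

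In the hippocampus, the contrast by which 3 members were picked, 4 of the 5 measured members had higher values with PAMAM: Tnnt1, Slitrk6, Ramp3 and Prkcd by probe 1, with Tcf7l2 close to 0. Their median difference was 0.78, beside 0.00 over all 22325 measured genes. At least 2-fold higher was 1 member, Tnnt1, beside 0.582% of all measured genes, and 0 members were at least 2-fold lower, beside 0.0672%. Nothing is read from these counts, since the rule used this contrast.

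Tnnt1 had a level of 0.97 in the PAMAM hippocampus, against -0.55 in the saline hippocampus. The difference was 1.52, or 2.87-fold, with a spot noise SD of 0.10. Its levels in the other regions were 0.95 (PAMAM) and 0.97 (saline) in the olfactory bulb and 0.92 (PAMAM) and 0.81 (saline) in the cortex. The saline hippocampus was thus the array that stood apart, and the PAMAM hippocampus lay at the level of both other regions. Probe 2, further along the gene, gave the same picture. It stood at -2.95 in the PAMAM hippocampus, and at -4.74 and not well above background in the saline hippocampus. Taken against the dim array's own value, it was 3.47-fold higher with PAMAM, with a spot noise SD of 0.33 (log2). That value lay above the lowest well-above-background signal of its array, so the fold is an estimate and not a strict bound. In the olfactory bulb probe 2 stood at -3.45 (PAMAM) and -2.90 (saline), a difference of -0.56 that probe 1 did not share at -0.03. In the cortex it differed by 0.03 and probe 1 by 0.10.

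Slitrk6, the synaptic adhesion gene, is read by 1 probe of low signal, with intensities from 58.4 to 106.8 over the 6 arrays. Its level was -2.47 in the PAMAM hippocampus, against -3.45 in the saline hippocampus. The difference of 0.98 lay just under 2-fold (1.97-fold), with a spot noise SD of 0.22. With normexp background correction, which adds an offset and shrinks dim probes, it was 0.61. In the cortex the levels were -2.87 (PAMAM) and -2.41 (saline), a difference of -0.47, which was -0.11 with normexp. The olfactory bulb stood between, with -2.73 (PAMAM) and -3.07 (saline), a difference of 0.34, and 0.074 with normexp. The saline hippocampus was again the lowest array.

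Prkcd, the kinase gene, was at 0.42 in the PAMAM hippocampus and -0.28 in the saline hippocampus. The difference was 0.70, with a spot noise SD of 0.10, and its probe 2 gave 0.83 from levels of -0.30 (PAMAM) and -1.13 (saline). In the cortex probe 1 stood at -0.89 (PAMAM) and -0.76 (saline), and in the olfactory bulb at -1.46 (PAMAM) and -1.76 (saline). Both hippocampus arrays were above all 4 others on either probe, so for Prkcd the saline hippocampus was not the lowest array. Differences elsewhere were -0.13 in the cortex, with -0.25 on probe 2, and 0.29 in the olfactory bulb, where probe 2 gave 0.01.

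Ramp3, the receptor accessory gene, is not named in the rule that picked the set. All members were still chosen with earlier results of these data known, so its hippocampal rank supports nothing. Ramp3 was at 1.49 in the PAMAM hippocampus and 0.71 in the saline hippocampus. The difference was 0.78 with a spot noise SD of 0.08, and the overlapping probe 2 gave 0.76. Levels in the olfactory bulb were 0.96 (PAMAM) and 0.59 (saline), a difference of 0.37, and 0.24 on probe 2. In the cortex they were 2.31 (PAMAM) and 2.29 (saline), a difference of 0.02, and -0.11 on probe 2. Of the 22325 genes measured in the hippocampus, 98.9% had a smaller difference than Ramp3, and 99.8% had one smaller than Tnnt1, which ranked 53 from the top.

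Tcf7l2, the Wnt pathway factor, gave values that depended on the probe. Near the start of the gene, probe 1 stood at -1.38 in the PAMAM hippocampus and -1.34 in the saline hippocampus, a difference of -0.04. Probe 2, which lies well inside the gene, stood at -1.46 (PAMAM) and -2.41 (saline), a difference of 0.95 or 1.93-fold, with a spot noise SD of 0.16. The A-rich probe 3 near the end of the gene was not well above background on either hippocampus array, at -4.50 (PAMAM) and -5.36 (saline). In the cortex probe 1 differed by -0.31 and probe 2 by 0.34, again with opposite signs. In the olfactory bulb probe 1 differed by -0.28, probe 2 by -0.02 and probe 3 by -0.45, the last with a spot noise SD of 0.37. By the median of all its probes Tcf7l2 would be 0.95 higher in the hippocampus, in place of -0.04. On both hippocampus arrays that median is probe 2 itself, so it repeats the probe 2 value. Which transcripts each probe reads was not tested.

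Plekhg1, the exchange factor gene, gives no difference in any region. Its intensities were 12.6 (PAMAM) and 7.5 (saline) in the hippocampus, 10.1 (PAMAM) and 8.0 (saline) in the cortex and 21.6 (PAMAM) and 17.8 (saline) in the olfactory bulb. Only the first olfactory bulb value was well above background, and no fold can be given against the saline array there. Any change in this gene was not detectable at this signal.

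**Figure D2:**
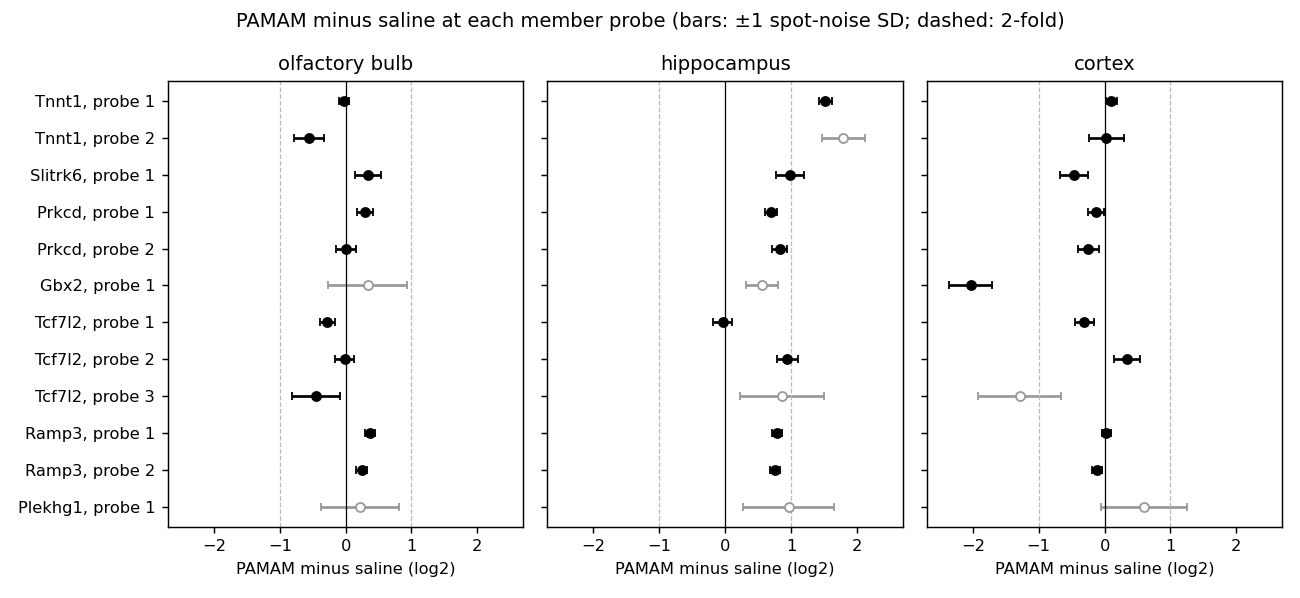
Difference between the PAMAM and the saline array (x axis, log2) at each of the 12 probes, in the olfactory bulb, hippocampus and cortex. Points are 1 pair of arrays, bars are 1 SD of spot noise either way, open grey points have an array that was not well above background, and dashed lines mark 2-fold. In the hippocampus Tnnt1 probe 1 lies at 1.52 and Tcf7l2 probe 1 at -0.04, and in the cortex Gbx2 lies at -2.03.

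In the cortex, 2 of the 6 measured members had higher values with PAMAM and 4 lower, with a median of -0.22, beside 0.02 over all 21600 measured genes. The median was -0.099 with normexp, -0.12 with the median over all probes and -0.13 with no filter on dim probes. At least 2-fold lower was 1 member, Gbx2, beside 0.417% of all measured genes, and 0 were at least 2-fold higher, beside 0.352%. Gbx2, the thalamic homeodomain factor, was picked from this contrast. It had an intensity of 23.8 in the PAMAM cortex, against 116.4 in the saline cortex. As levels these were -4.25 (PAMAM) and -2.22 (saline), a difference of -2.03 with a spot noise SD of 0.33. That made saline 4.09-fold higher, from 1 spot on each array, and Gbx2 ranked 11 from the bottom of 21600 genes. With normexp the difference was -0.75, no longer 2-fold. The 4 other arrays had intensities of 4.6 to 7.6 and none was well above background, so the saline cortex stood apart from all 5 other arrays. Of the members with a higher hippocampal value, Tnnt1 differed in the cortex by 0.10, Ramp3 by 0.02, Prkcd by -0.13 and Slitrk6 by -0.47. No test of a difference between regions was possible for these pairs of single arrays.

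The olfactory bulb, whose values were not used to pick the set, had 3 measured members higher and 2 lower with PAMAM, with a median of 0.29, beside -0.01 over all 23286 measured genes. At least 2-fold different were 0 members, beside 0.258% of all measured genes (0.0515% higher and 0.206% lower). Ramp3 at 0.37, Slitrk6 at 0.34 and Prkcd at 0.29 were the higher ones, and Tcf7l2 at -0.28 and Tnnt1 at -0.03 the lower ones. With normexp the median was 0.074, and 0.15 where the median over all its probes stood for a gene.

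Of 22 other genes used as markers of thalamic relay neurons, chosen with earlier results of these data known, 20 were measured in the hippocampus. There 17 were above 0 and 3 below, with a median of 0.31. Over all measured genes 51.2% were above 0, with a median of 0.00. At least 2-fold higher was 1 of them, beside 0.582% of all measured genes: Zic1, a zinc finger factor, at 1.26, with levels of 2.38 (PAMAM) and 1.11 (saline). Nexn, an actin-binding protein gene, differed by 0.74, from levels of -2.05 (PAMAM) and -2.79 (saline). Cbln1, a synaptic organiser, went the other way at -0.69, from levels of -0.41 (PAMAM) and 0.28 (saline). In the cortex 21 of the 22 were measured, with 11 above 0, 10 below and a median of 0.02. The largest sizes there were those of the calcium-binding Calb2 at -1.06, of Grid2ip at -0.51 and of Synpo2 at 0.51. In the olfactory bulb 12 of 21 were above 0 and 9 below, with a median of 0.01, and Nexn was at -0.80. Zic1 stood at 4.56 (PAMAM) and 4.59 (saline) in the olfactory bulb, above its hippocampal levels. The summed level of the 22 genes was also highest there, at 114.9 (PAMAM) and 116.6 (saline). It was 56.3 (PAMAM) and 48.9 (saline) in the hippocampus, and 62.1 (PAMAM) and 61.8 (saline) in the cortex.

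Markers of the structures next to the relay nuclei were read as well. Of 8 habenula genes, 3 were measured in the hippocampus, with 2 above 0 and 1 below (median 0.07), and the 4 genes Gpr151, Chrnb3, Chrna3 and Irx2 were not well above background on any of the 6 arrays. The summed habenula level was 5.86 (PAMAM) and 5.80 (saline) in the hippocampus. Of 6 genes for the thalamic reticular nucleus, an inhibitory shell around the thalamus, 5 were measured, with a median of 0.08. There the transcription factor gene Six3 was at 0.72 and Ecel1 at -0.89.

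**Figure D3:**
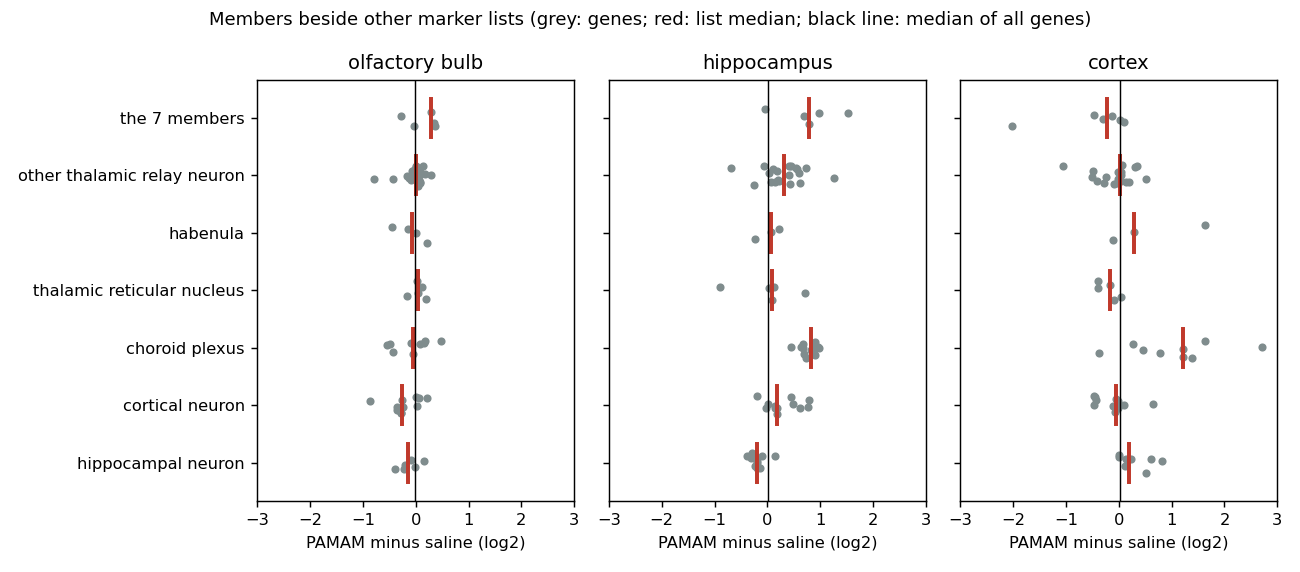
Difference between the PAMAM and the saline array (x axis, log2) for the measured genes of 7 marker lists in each region. Grey points are genes (their height within a list is arbitrary), red bars are list medians and the black line is the median of all measured genes. In the hippocampus the members lie around 0.78, the other relay neuron genes around 0.31 and choroid plexus genes around 0.82.

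Marker genes of other cell types also differed between the 2 hippocampus arrays. The 13 markers of choroid plexus, which secretes cerebrospinal fluid, were all measured there and 13 were above 0, with a median of 0.82, led by F5 at 0.98 and Slc4a5 at 0.97. Their summed level was 280.7 (PAMAM) and 173.4 (saline), most of it from Ttr alone, at log2 levels of 7.95 (PAMAM) and 7.27 (saline). All 5 measured red blood cell genes were above 0 (median 0.55, summed level 65.9 with PAMAM and 45.6 with saline). Cortical neuron markers were above 0 in 10 of 12 (median 0.18; Rspo1 0.77, Lamp5 0.62; summed level 38.6 with PAMAM and 35.5 with saline). Hippocampal neuron markers were below 0 in 10 of 11 (median -0.19; Cabp7 -0.39, Wfs1 -0.32; summed level 69.8 with PAMAM and 82.8 with saline). Oligodendrocyte genes, which bear on Tcf7l2, were above 0 in 8 of 10 (median 0.17; summed level 236.1 with PAMAM and 210.8 with saline), and Myrf was at 2.18. Striatal markers (4 of 9 above 0, median -0.02) and endothelial markers (5 of 9, median 0.06) lay near 0. The part of any of these in the thalamic marker values was not tested.

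Beside Gbx2 in the cortex, hypothalamic markers were below 0 in 7 of 8 (median -0.26), with the oxytocin gene Oxt at -3.47 and Pmch at -0.74, and their summed level was 3.13 (PAMAM) and 6.54 (saline). Most of the difference in that sum came from Oxt and Avp. Avp stood at -4.20 (PAMAM) and -0.17 (saline), and was well above background on only 1 of these arrays. Sim1, Otp and Fezf1 were not well above background on any of the 6 arrays. Olfactory bulb neuron markers were below 0 in 7 of 10 (median -0.31; Trh -1.04, Dlx6 -1.01), with summed levels of 13.4 (PAMAM) and 13.1 (saline). Choroid plexus markers were above 0 in 8 of 9 (median 1.22). Their summed level was 24.5 (PAMAM) and 5.25 (saline), most of it from Ttr, at log2 levels of 4.38 (PAMAM) and 1.66 (saline). Meningeal markers were above 0 in 8 of 8 (median 0.92, Ogn 1.29, summed level 13.4 with PAMAM and 6.63 with saline). The part of any of these lists in the Gbx2 value was not tested.

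The rule that picked the members names no contrast between regions, and such contrasts were tested. The hippocampus arrays that picked Tnnt1, Slitrk6 and Prkcd, and the cortex arrays that picked Gbx2, also enter the region means. The region values of these genes are thus not independent of the choice. A limma model of region and treatment was fitted to all 6 arrays over 34482 probes that were well above background on both arrays of at least 1 region, with p-values adjusted by Benjamini-Hochberg over all of them. The 2 arrays of a region differ in treatment, so the spread holds noise and any treatment effect that differs between regions. It has 2 residual degrees of freedom, to which limma adds 1.93 prior degrees of freedom from the spread of all probes. Members picked for a treatment difference in 1 region have that difference in their own spread, which widens their intervals. Of the 12 member probes 11 entered the fit.

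Prkcd was higher in the hippocampus than in the olfactory bulb, by 1.68 ± 0.22 (SE) on probe 1 (limma adjusted p = 0.012) and by 1.58 ± 0.29 on probe 2 (adjusted p = 0.026). The difference was 1.88 in the PAMAM arrays and 1.48 in the saline arrays on probe 1. These 2 were the member probes past the threshold in that comparison, beside 34.6% of all probes tested. Prkcd was picked in part by its hippocampus values, so its p-values do not stand free of that choice. Ramp3 was higher in the cortex than in the olfactory bulb, by 1.52 ± 0.21 on probe 1 (adjusted p = 0.013) and 1.45 ± 0.23 on probe 2 (adjusted p = 0.018), with 1.35 in the PAMAM arrays and 1.70 in the saline arrays on probe 1. Gbx2 was also higher in the cortex than in the olfactory bulb (limma adjusted p = 0.032). It was not well above background in the olfactory bulb, so the fold is a bound, at least 3.65-fold as a mean over both treatments. With PAMAM its cortex level was -4.25, and the lowest well-above-background level of the olfactory bulb array was -5.34. With saline these were -2.22 and -4.87. Gbx2 entered the test through the cortex arrays alone, so that a difference had to appear and its p supports nothing. Of the 10 other probes 2 passed, both of Ramp3, beside 37.2% of all probes tested.

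Between hippocampus and cortex 0 member probes passed in the limma fit, beside 5.01% of all probes. An unadjusted p below 0.05 was reached by 5 of the 11 member probes tested, beside 8066 of all 34482 probes tested. The 5 were both Ramp3 probes, at -1.20 ± 0.21 (adjusted p = 0.064) and -1.09 ± 0.23 (adjusted p = 0.093), both Prkcd probes, and Gbx2. Prkcd was at 0.89 ± 0.22 (adjusted p = 0.12) and 1.24 ± 0.29 (adjusted p = 0.11). Gbx2 (adjusted p = 0.083) was at least 2.98-fold higher in the cortex as a mean over both treatments. With PAMAM its cortex level was -4.25, close to the lowest well-above-background level of the hippocampus array, -4.56. With saline these were -2.22 and -5.05. Gbx2 was not well above background on either hippocampus array and entered through the cortex alone, so its p supports nothing here either. With normexp Ramp3 and Prkcd passed on probe 1 (adjusted p = 0.0084 and 0.038). In the saline arrays alone the Prkcd difference was 0.47 and in the PAMAM arrays 1.30.

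So the order of levels was hippocampus, cortex, olfactory bulb for Prkcd, of which the first and the last differed past the threshold and the neighbours did not (cortex minus olfactory bulb 0.79, adjusted p = 0.060, and 0.35, adjusted p = 0.40, on probe 2). On probe 1 cortex minus olfactory bulb passed with normexp (0.68, adjusted p = 0.017) and with quantile normalization (0.82, adjusted p = 0.0499). For Ramp3 it was cortex, hippocampus, olfactory bulb, with hippocampus and olfactory bulb apart by 0.32 (95% interval -0.25 to 0.90). Tnnt1, Slitrk6 and Tcf7l2 showed no region difference past the threshold. The Tnnt1 interval for hippocampus minus cortex reached from -1.89 to 0.57 and that of Slitrk6 from -1.37 to 0.72. On probe 1 of Tcf7l2 it reached from -0.10 to 0.49.

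**Figure D4:**
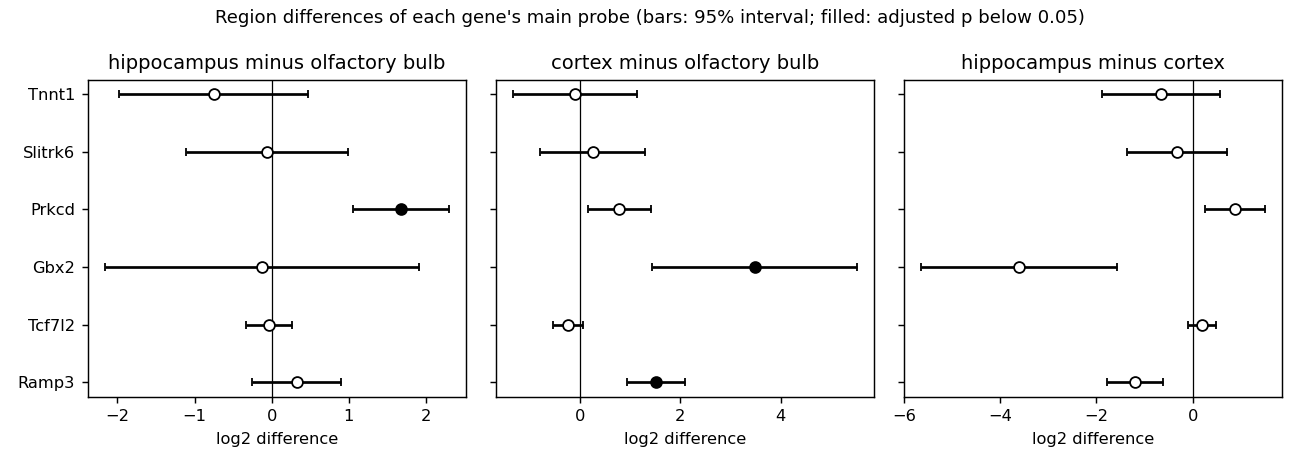
Difference between regions (x axis, log2, first-named region minus second; scales differ between panels) for probe 1 of the 6 genes that entered the fit. Points are estimates from all 6 arrays, bars are 95% intervals and filled points have a limma adjusted p below 0.05, which holds for Prkcd in the first panel and for Gbx2 and Ramp3 in the second. Gbx2 entered through the cortex arrays alone, and Prkcd was picked in part by its hippocampus values.

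Genes with the most similar pattern over the 6 arrays were found by the distance between profiles centred on their mean (Euclidean, log2), among 13821 genes well above background on every array where the member was. This is a description of 6 arrays. For Tnnt1, Slitrk6, Prkcd and Gbx2 these include the arrays by which they were picked, and for Tnnt1 the saline hippocampus stands apart. Nearest to Tnnt1 were the riboflavin transporter gene Slc52a3 at a distance of 0.54, the GABA-A receptor subunit gene Gabra3 at 0.65 and Gpr4 at 0.66. Gabra3, for example, stood at 3.15 in the PAMAM hippocampus and 2.27 in the saline hippocampus. Nearest to Prkcd were the prolactin receptor gene Prlr at 0.38, Myo7a at 0.45 and 1700007K13Rik at 0.46. Prlr is among the choroid plexus markers used above, and stood at -1.56 in the PAMAM hippocampus and -2.02 in the saline hippocampus. The 2 Prkcd probes were 0.52 apart by the same measure, so these genes lie about as close to probe 1 as the gene's other probe.

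Ramp3 had Arhgap32 (0.41), Ier5 (0.41) and the cadherin gene Cdh7 (0.45) nearest, against 0.17 between its own overlapping probes. Slitrk6 had Olfr48 (0.31), Gsdmc3 (0.34) and Ergic1 (0.40). For Tcf7l2 probe 1 they were Xrn1 (0.083), Fancg (0.11) and Pik3ip1 (0.11), while its own probes 1 and 2 were 0.93 apart. For Gbx2, among 14121 genes, the nearest were Gm765 (1.18), Serpina9 (1.37) and Krt25 (1.37). For Plekhg1, seen on 1 array, they were Tmem45a (0.23), 1700048O20Rik (0.26) and Dll4 (0.33) among 15420 genes, and most of its profile is background.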

How the data were processed

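Linear spot intensity is what the deposited array files give, made with Agilent Feature Extraction 10.7.3.1 on array design 028005 with probe positions in mm9, per the file headers. The processed signal in them is background-subtracted. Log2 values deposited by the authors were compared with these; over 29245 probes they equal the scaled values minus each probe's median (largest residual 0.0233), which settles their scale, centring and direction. How the authors filtered that table is not stated in the sources read. Its column medians lay between -0.0906 and 0.0432.

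From the processed signal, log2 levels were computed here relative to the 75th percentile of non-control spots on the same array. Spots with an outlier mark were dropped. Gene names came from the files, updated through RefSeq accessions (27235 of 55681 probes matched, 2838 symbols changed); the gene is read by its probe with the highest mean. Region contrasts used limma 3.58.1 in R 4.3.3, tested on simulated data. The named genes are the 7 members on every probe, the 3 nearest profiles of each, and at most 3 genes of each of 13 other marker lists by size of difference. Members and lists were chosen with earlier results of these data known. The number of arrays limits the precision. Alternatives were normexp background (offset 50), quantile normalization, the authors' table, the median of all probes, outlier spots kept, no filter on dim probes, no treatment term and either treatment's arrays alone.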

Additional observations from a re-analysis of the deposited data

Results flagged for a closer look

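Slitrk6 was picked in part for its hippocampal value, which is therefore fixed by that choice. Its differences had opposite signs in 2 regions, each difference being larger than 2 SDs of spot noise: PAMAM minus saline was 0.98 in the hippocampus and -0.47 in the cortex (log2). Each rests on 1 spot on each of 2 arrays, and the difference between the regions was not tested. With normexp background the cortex value was -0.11. The spot noise SD of the cortex difference (0.21) is that of the levels without normexp, and spot noise was not estimated for normexp values. No other member probe that was well above background on both arrays had opposite signs past 2 SDs.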

How the results depend on the processing

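The labels give no replicate numbers. Region was the tested factor in the limma fit and treatment an additive term, and a PAMAM effect shared over the 3 regions was not tested. The median of measured members was 0.074 (olfactory bulb), 0.63 (hippocampus) and -0.099 (cortex) with normexp background, against 0.29, 0.78 and -0.22. With the median of all probes it was 0.15 in the olfactory bulb and -0.12 in the cortex, and with no filter on dim probes -0.13 in the cortex. Prkcd in the cortex against the olfactory bulb passed with normexp (adjusted p = 0.017) and quantile normalization (0.0499). Normexp left 0 members at least 2-fold different in the cortex, since Gbx2 shrank to -0.75, and the median of all probes left 0 in the hippocampus, where Tnnt1, at 1.66, then failed the filter through its probe 2. Probes past the limma threshold between hippocampus and cortex, 1727 as reported, were 3482 with normexp, 2811 with no treatment term and 0 with no filter on dim probes (6934 lay at an unadjusted p below 0.05). With no filter they were 4675 between hippocampus and olfactory bulb and 4909 between cortex and olfactory bulb, against 11927 and 12831. Gbx2 in the cortex against the olfactory bulb lost its call with no filter (adjusted p = 0.090). Quantile normalization and the authors' table left every count of 2-fold members and every limma count within 1.5 times of the reported one. Dim probes (Gbx2, Slitrk6, Plekhg1) are where signal over background limits the values.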

Other observations

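Among the marker lists, a serotonin receptor gene used as a habenula marker differed in the cortex: Htr5b was 1.64 higher with PAMAM there, and 0.21 higher in the hippocampus, while the 3 measured habenula genes of the cortex had a median of 0.29. The olfactory bulb factor Eomes was at 1.19 in the hippocampus, where olfactory bulb neuron markers were above 0 in 4 of 11 (median -0.04). In the cortex, hippocampal neuron markers were above 0 in 7 of 8 (median 0.18; Spink8 0.81, Lct 0.62), and red blood cell genes in 4 of 4 (median 0.59). Cortical neuron markers were above 0 in 2 of 12 there (median -0.06; Nr4a2 0.65), reticular nucleus markers in 1 of 5 (median -0.17), oligodendrocyte markers in 4 of 9 (median -0.12; Opalin -0.63), striatal markers in 5 of 10 (median -0.03) and endothelial markers in 6 of 9 (median 0.13). In the hippocampus, hypothalamic markers were above 0 in 4 of 9 (median -0.23; Pmch -1.17) and meningeal markers in 4 of 8 (median 0.05). In the olfactory bulb the medians of the 13 lists ran from -0.26 (cortical neuron) to 0.06 (red blood cell), with habenula at -0.07 and choroid plexus at -0.06.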
